A study of Mus musculus with 9 samples.

Results

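The collagen chain genes of MLO-Y4 cells were examined in 3 co-culture conditions. Members were the protein-coding genes whose symbol has the form of a collagen α-chain gene (Col, a type number, the letter a and a chain number). This rule, which uses no measured value, selected 44 of the 56748 genes in the table, of which 21970 are protein-coding. RNA sequencing had been performed on 9 libraries, 3 per group, to ask how MLO-Y4 cells respond to inflamed chondrocytes. MLO-Y4 is an immortalized osteocyte-like line of the mouse, and it was grown in all groups in wells coated with collagen type I (0.15 mg/ml). Primary articular chondrocytes of 5 to 6-day-old C57BL/6J mice shared the medium from a transwell insert with 1.0 µm pores. In the control group the chondrocytes had received no stimulation, and how long this culture lasted is not stated in the labels. In the other groups the chondrocytes had first been exposed to interleukin-1β (10 ng/ml, 6 h) and the co-culture lasted 24 h or 48 h, so that stimulation and culture time cannot be told apart in a comparison with control. RNA was taken from the MLO-Y4 cells only.

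Collagens are trimers of α-chains wound into a triple helix, and they are the main structural proteins of bone, cartilage, skin and basement membranes. Fibrillar collagens assemble into the banded fibrils that carry tensile load, with type I as the main protein of bone matrix and type II as that of cartilage. FACIT collagens (fibril-associated collagens with interrupted triple helices) sit on fibril surfaces, type IV collagen forms the sheet of basement membranes, type VI forms beaded filaments around cells, the network collagens form hexagonal lattices, and the transmembrane collagens span the cell membrane. By these textbook families the 44 members comprised 11 fibrillar, 6 basement membrane, 6 beaded filament, 9 FACIT, 3 network, 4 transmembrane and 2 multiplexin chains, 1 anchoring fibril chain and 2 others.

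Total counts ranged from 12250628 to 18515456 per library, and 75192 to 141252 of these fell in collagen genes. The labels name no batch and do not say whether replicates were separate cultures, so p-values measure the spread between these libraries, which may be technical. The cell line is labelled MLO-Y4 in the control and 24 h samples but MLO-Y5, MLO-Y6 and MLO-Y7 in the 48 h samples, while the protocols name MLO-Y4 throughout. Of 15 osteocyte and osteoblast markers, 10 passed the filter on low counts (a minimum count of 10 in edgeR's filterByExpr), including Phex, Pdpn, Gja1, Spp1 and Sparc. The other 5 were nearly absent, with the osteocyte genes Mepe and Fgf23 and the osteoblast gene Ibsp at 0 counts in every library, Sost at 1 count at most and Dmp1 at 6 at most. Because the libraries are bulk RNA, fewer cells of a type and less RNA per cell cannot be told apart.

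Of the 44 chain genes, 25 passed the filter and were tested. They comprised 9 of 11 fibrillar, 5 of 9 FACIT, 3 of 6 beaded filament, 2 of 6 basement membrane, 2 of 3 network and 2 of 4 transmembrane chains, the multiplexin Col18a1 and the anchoring fibril chain Col7a1. The other 19 were too low to test. Of these, 6 reached more than 3 counts in at least 1 library, namely Col6a4 (at most 14 counts), Col9a3 (11), Col27a1 (10), Col2a1 (7), Col4a3 (6) and Col4a4 (6). Another 7 never exceeded 3 counts, namely Col4a5, Col4a6, Col6a5, Col8a2, Col15a1, Col19a1 and Col25a1. The remaining 6, Col6a6, Col9a1, Col9a2, Col13a1, Col26a1 and Col28a1, had 0 counts in all 9 libraries. A count of 0 allows up to 3 counts, which corresponds to 0.160 to 0.245 counts per 1000000 (CPM) depending on the library, and this limit covers counting error only.

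The type IX chains Col9a1 and Col9a2 were thus not detected, while Col2a1 had at most 7 counts and the type IX chain Col9a3 at most 11. The type XI chains Col11a1 (21 to 75 counts) and Col11a2 (15 to 39 counts) passed the filter. Col2a1, the chain of type II collagen, had 1, 0 and 6 counts in the control libraries, 7, 0 and 1 at 24 h, and 0, 2 and 3 at 48 h. Its type IX partners Col9a1 and Col9a2 were at 0, and 3 of 10 chondrocyte markers (Acan, Matn1 and Cnmd) were also at 0 in every library, whereas 4 others (Sox9, Prg4, Comp and Matn3) passed the filter. Within type IV only the Col4a1 and Col4a2 pair was expressed above the filter, whereas the chains of the glomerular network (Col4a3, Col4a4 and Col4a5) were not. Col6a4 had 4, 7 and 14 counts at 48 h and at most 3 in any library of the other groups, which is too low for a test.

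**Figure D1:**
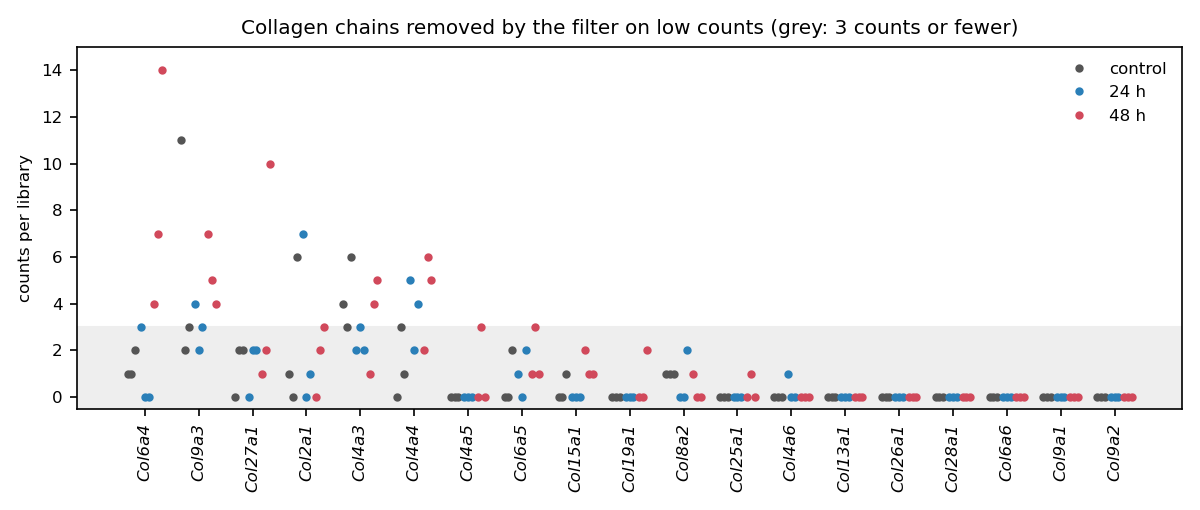
Raw counts per library (vertical axis) of the 19 collagen chain genes that failed the filter on low counts, in 3 control, 3 24 h and 3 48 h libraries, with the zone of 3 counts or fewer in grey. Only Col6a4, Col9a3 and Col27a1 reach 10 counts in any library, and 6 genes lie at 0 throughout.

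Collagen genes took 0.618% ± 0.0167 of all counts in the control libraries (SD, n = 3), 0.607% ± 0.0110 at 24 h and 0.763% ± 0.00366 at 48 h. The control and 24 h libraries overlapped in this share, whereas every 48 h library lay above all others. No test was run on this share. Without Col3a1, the chain with the most counts over all libraries, it was 0.538% in control, 0.511% at 24 h and 0.585% at 48 h. Levels of different genes were compared only as CPM per kilobase, with the gene length of the deposited table unless stated. On this scale the highest chains in control cells were Col1a1 (194 ± 7.24 CPM per kb), which encodes the α1 chain of type I collagen, and Col6a1 (151 ± 7.51), which encodes the α1 chain of type VI. Next came Col5a2 (85.5 ± 3.23) and Col3a1 (81.9 ± 2.40), whose difference was about as large as their SDs, and Col5a1 (50.1 ± 0.710) and the FACIT chain Col16a1 (49.7 ± 0.701), which did not differ beyond their spread. The 3 lowest tested chains, Col11a1, Col24a1 and Col23a1, had 0.160 to 0.200 CPM per kb in control cells. At 48 h the order at the top had changed, with Col6a1 (183 ± 6.70), Col3a1 (179 ± 2.10) and Col1a1 (177 ± 2.80) within a narrow range. The deposited length of Col3a1 (9816 bases) is larger than that of its canonical transcript in the GENCODE M39 annotation (5564 bases). With canonical lengths, an alternative chosen after these lengths were seen, Col3a1 was the highest chain at 48 h (316 CPM per kb against 195 for both Col1a1 and Col6a1). In control cells these lengths left Col1a1 (215) and Col6a1 (162) highest but put Col3a1 (144 ± 4.23) above Col5a2 (109 ± 4.11). They also put Col6a2 (64.7) and Col16a1 (59.0) above Col5a1 (50.8).

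**Figure D2:**
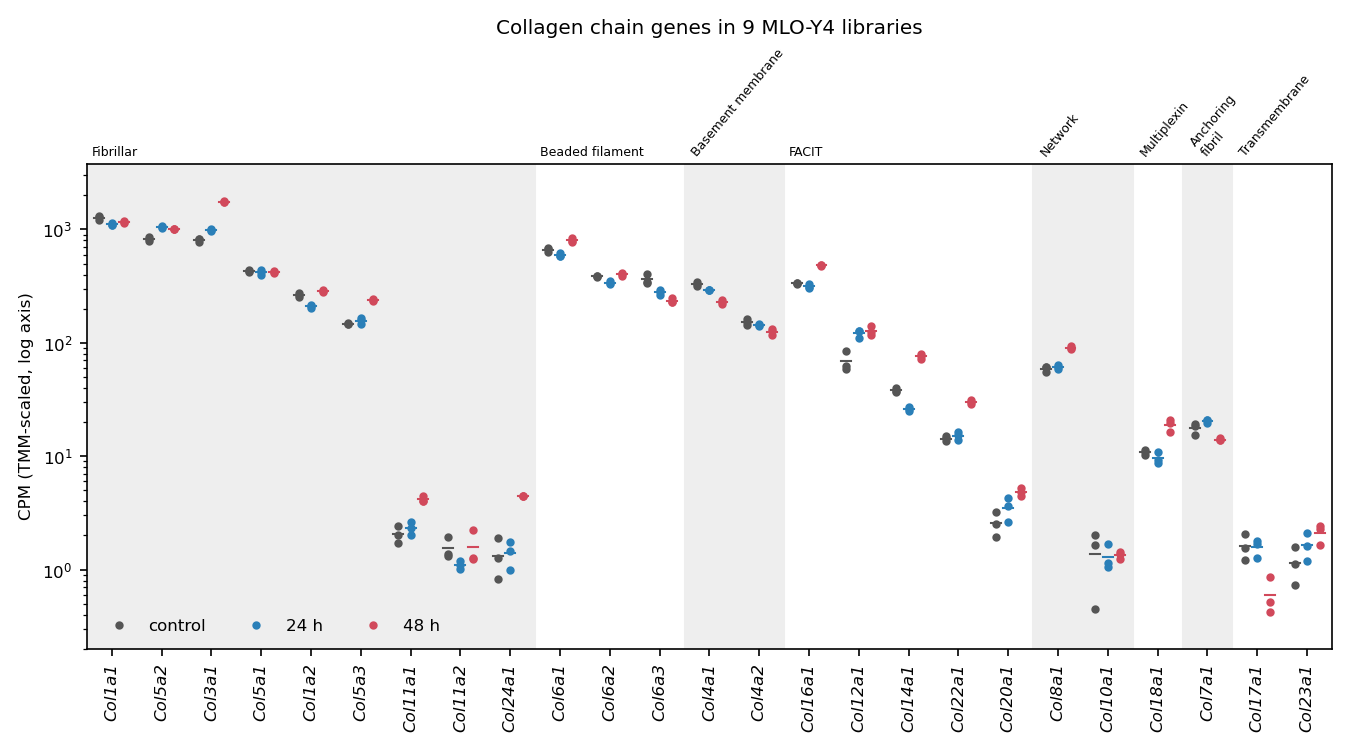
CPM per library after TMM scaling (log axis) of the 25 tested collagen chains, ordered by structural class and by level in control, with 1 point per library and a bar at the mean of each group. Levels span from below 1 CPM to 1777 CPM, and in Col3a1, Col14a1, Col22a1 and Col24a1 the 48 h points lie above all control points.

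The first comparison asked which chains differed between 48 h of stimulated co-culture and control. Of the 25 tested chains, 15 were called higher and 6 lower (edgeR quasi-likelihood test, Benjamini-Hochberg adjusted p under 0.05 over 13812 genes), where 46.4% of all tested genes were called (22.0% higher and 24.4% lower). The libraries of both groups did not overlap for 22 of the 25, against 53.1% of all tested genes. The median log2 fold change of the 25 chains was 0.31, compared with -0.0022 over all tested genes. A change of at least 0.5 on the log2 scale together with a call was seen in 15 chains, with a background of 17.9%, and a change of at least 1 in 5 chains, with a background of 5.1%. At 24 h, 3 chains were called higher and 6 lower, where 6.15% of all genes were called (3.25% higher and 2.9% lower), and the libraries did not overlap for 13 of 25 chains against 21.5% of genes. The 24 h background depended on single libraries. Leaving out control replicate 3 raised it from 849 to 1475 called genes, and leaving out 24 h replicates 1 or 3 lowered it to 524 and 518, while the chains called lower numbered 5, 4 and 5 in these fits and those called higher stayed at 3. Only Col12a1 and Col14a1 were called at 24 h with a change of at least 0.5, with a background of 1.81%.

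The comparisons at 24 h and 48 h share the control libraries, so their values are given side by side. Col3a1, Col5a2 and Col12a1 were called higher at both times, and Col1a1, Col4a1 and Col6a3 were called lower at both. Col1a2 and Col14a1 were called lower at 24 h and higher at 48 h, where the Col1a2 call was marginal. Another 10 chains were called higher and 3 lower at 48 h without a call at 24 h, Col6a2 was called lower at 24 h without a call at 48 h, and Col5a1, Col10a1 and Col11a2 were called at neither time. Over all tested genes, 46.4% were called at 48 h and 6.15% at 24 h. The share of all genes with each of these joint patterns was not computed, so the counts have no background. Among the uncalled 24 h values, those of Col20a1 (0.46) and Col23a1 (0.48) were the highest, with SEs of 0.23 and 0.33. Those of Col5a3 (0.09), Col11a1 (0.18), Col22a1 (0.08), Col8a1 (0.05) and Col7a1 (0.19) were above 0, and those of Col4a2 (-0.09), Col17a1 (-0.03) and Col18a1 (-0.18) below it. Whether the times differ is tested in the comparison of 48 h with 24 h.

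**Figure D3:**
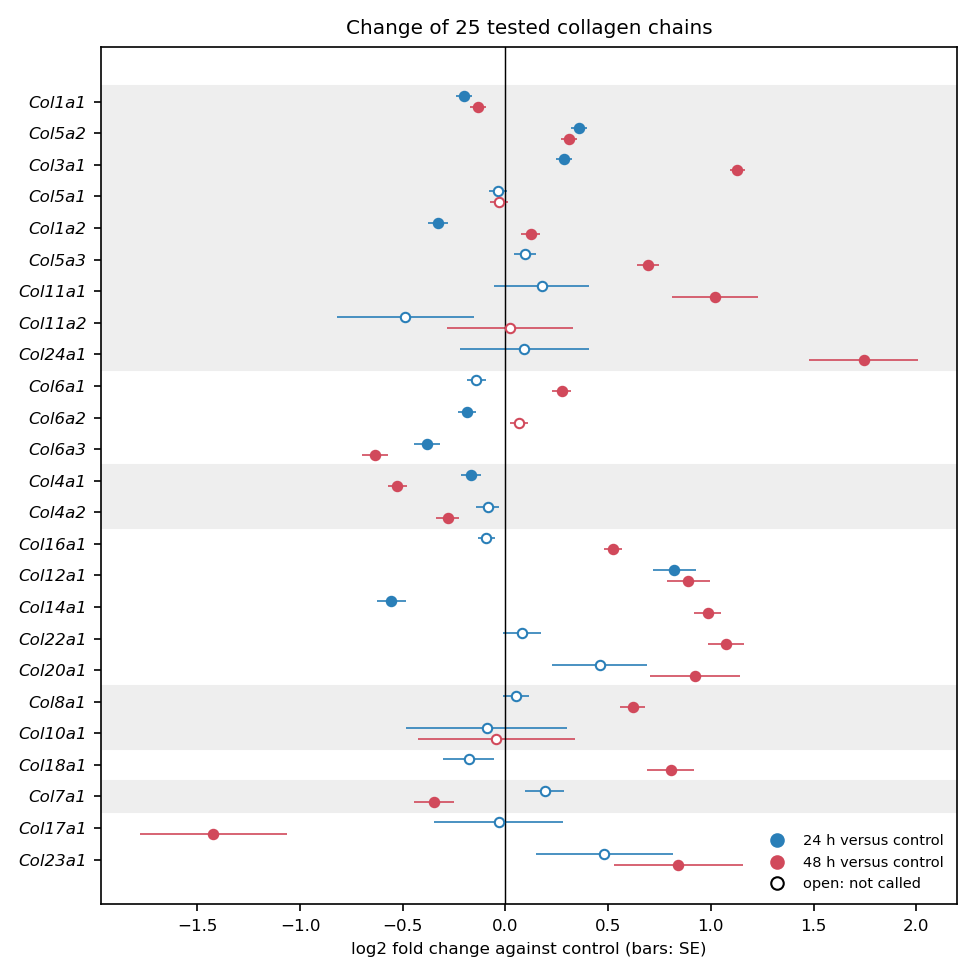
Log2 fold change against control (horizontal axis, bars are the SE of the edgeR fit) of the 25 tested chains at 24 h (blue) and 48 h (red), with filled points for an adjusted p under 0.05. The red points of all 5 FACIT chains (Col16a1 to Col20a1) are filled and lie between 0.52 and 1.07, and those of Col4a1, Col4a2 and Col17a1 lie below 0.

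Among the fibrillar chains, 6 of 9 rose and 1 fell at 48 h (22.0% and 24.4% of all tested genes), and the class median log2 fold change was 0.31. Col3a1, whose product is the homotrimeric type III collagen of extensible tissues, had 817, 777 and 818 CPM in the control libraries, 979, 960.2 and 999.8 CPM at 24 h and 1759.6, 1777 and 1736 CPM at 48 h. The 3 groups did not overlap, and the 48 h libraries stood far above the rest. Col3a1 rose 2.19-fold at 48 h (log2 fold change 1.13, SE 0.04, edgeR adjusted p = 2.16e-13) and 1.22-fold at 24 h (adjusted p = 5.97e-05). Col24a1, a minor fibrillar chain known from developing bone, had 1.26, 0.818 and 1.88 CPM in the control libraries, 1.47, 1.76 and 0.988 CPM at 24 h and 4.46, 4.43 and 4.48 CPM at 48 h. Its control and 24 h libraries overlapped, and all 48 h libraries were above 4 CPM, giving the largest rise of any tested chain (log2 fold change 1.74, SE 0.26, adjusted p = 2.74e-05). No call was made for it at 24 h (0.09, SE 0.31).

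Type V and type XI chains nucleate fibrils and set their diameter. Col5a3 had 148, 145 and 147 CPM in the control libraries, 158, 146 and 166 CPM at 24 h and 236, 245 and 232 CPM at 48 h. Control and 24 h libraries overlapped, whereas the 48 h libraries were all higher (log2 fold change 0.69, SE 0.05, edgeR adjusted p = 6.3e-09). Col5a2 had 823, 787 and 849 CPM in the control libraries, 1043, 1038 and 1070.4 CPM at 24 h and 1014, 1016 and 1015 CPM at 48 h, so that the control libraries were lowest and the 24 h libraries highest. It rose at both times, by 0.36 and 0.31 on the log2 scale (adjusted p = 6.52e-06 and 3.17e-06). Col5a1, the usual partner of Col5a2 in type V trimers, had 427, 424 and 436 CPM in the control libraries, 422, 399.8 and 434 CPM at 24 h and 419.8, 412 and 426 CPM at 48 h, with overlapping groups and log2 fold changes of -0.03 and -0.03 (SE 0.04 and 0.04). Col11a1 was far less abundant, with 2.01, 1.72 and 2.41 CPM in the control libraries, 2.0, 2.34 and 2.61 CPM at 24 h and 4.06, 4.43 and 4.0 CPM at 48 h. It rose 2.03-fold at 48 h (adjusted p = 0.000595), while its partner Col11a2, at 1.55 ± 0.355 CPM in control, 1.10 ± 0.0991 at 24 h and 1.57 ± 0.569 at 48 h (SD, n = 3), was not called (-0.49 and 0.02, SE 0.33 and 0.31).

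The type I chains, which together form the α1-α1-α2 trimer of bone matrix, moved little. Col1a1 had 1218, 1297 and 1304 CPM in the control libraries, 1101, 1084 and 1141 CPM at 24 h and 1153, 1145 and 1179.9 CPM at 48 h. Every library of the stimulated groups lay below every control library, and the falls were small, namely -0.20 (edgeR adjusted p = 0.00312) at the earlier and -0.14 (adjusted p = 0.0085) at the later time. Col1a2 had 264 ± 9.50 CPM in control, 210.1 ± 7.80 at 24 h and 287 ± 3.48 at 48 h (SD, n = 3). It fell at 24 h (-0.33, adjusted p = 0.000181) and was marginally higher at 48 h (0.12, adjusted p = 0.0419). The latter call was lost without control replicate 1 (0.11 on the log2 scale), without 24 h replicate 1 (0.12), without 48 h replicates 1, 2 or 3 (0.12, 0.13 and 0.12), without the filter and in a fit of the 2 groups alone, with adjusted p between 0.0115 and 0.121 over 15 alternatives.

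The promoter windows of the fibrillar chains with the largest rise and the largest rise among abundant chains are shown to set their base composition beside the type IV pair described further on. Each window runs from 250 bases before to 50 after the annotated start in RefSeq (GRCm38.p6, a build other than that of the counts), 5′ to 3′ on the gene's own strand, and capitals mark matches on either strand to the TATA box core (letters TATAAA), to the CCAAT box, or to the GC box (letters GGGCGG). Of the 44 members, 35 had a window.
Col3a1, chr1:45311288-45311587, + strand: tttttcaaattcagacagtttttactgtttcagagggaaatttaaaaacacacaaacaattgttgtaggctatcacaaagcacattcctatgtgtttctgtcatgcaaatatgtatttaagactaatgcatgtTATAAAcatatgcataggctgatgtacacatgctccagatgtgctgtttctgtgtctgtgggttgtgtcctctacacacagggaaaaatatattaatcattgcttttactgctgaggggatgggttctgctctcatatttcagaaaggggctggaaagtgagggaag
Col24a1, chr3:145292222-145292521, + strand: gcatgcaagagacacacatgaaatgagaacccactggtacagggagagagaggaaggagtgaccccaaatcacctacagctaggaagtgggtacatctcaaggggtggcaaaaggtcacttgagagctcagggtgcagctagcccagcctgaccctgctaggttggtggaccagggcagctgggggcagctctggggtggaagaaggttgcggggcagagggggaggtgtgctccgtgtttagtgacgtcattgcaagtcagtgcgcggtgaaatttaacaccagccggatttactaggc
The Col3a1 window held 1 match to TATAAA, 117 bases before the start, and the Col24a1 window held none of the 5 motifs searched. Among the 38 collagen windows (some genes have several starts), 13.2% held the TATA box core, 34.2% the CCAAT box and 60.5% the GC box, against 13.6%, 37.4% and 35.7% of the 32851 windows of all genes. ACGTG, the core of the hypoxia response element, was in 13.2% against 19.6% and the AP-1 site, written TGACTCA, in 2.63% against 5.20%. A match is only a run of letters and not a binding site, and the Col4a1 and Col4a2 windows overlap.

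All 5 tested FACIT chains rose at 48 h, where 22.0% of all tested genes were called higher, with a class median log2 fold change of 0.92. Col14a1 encodes collagen XIV, an interfibrillar chain of tendon, skin and other dense tissues. It had 40.2, 37.1 and 37.6 CPM in the control libraries, 25.0, 27.1 and 26.2 CPM at 24 h and 79.8, 76.0 and 72.0 CPM at 48 h. The 3 groups were fully separated, with the 24 h libraries lowest and the 48 h libraries highest. Col14a1 fell 1.47-fold at 24 h (log2 fold change -0.56, SE 0.07, edgeR adjusted p = 4.24e-05) and rose 1.98-fold at 48 h (0.98, SE 0.06, adjusted p = 7.67e-10).

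Col12a1, the related collagen XII chain of load-bearing tissues, had 62.6, 58.7 and 85.2 CPM in the control libraries, 127, 111 and 127 CPM at 24 h and 117, 125 and 141 CPM at 48 h. Both stimulated groups lay above control and overlapped each other. The rise was already 1.77-fold at 24 h (0.82, SE 0.10, edgeR adjusted p = 4.4e-05) and was 1.85-fold at 48 h (adjusted p = 1.34e-06). Col22a1, a chain of tissue junctions such as muscle and tendon, had 15, 14.4 and 13.5 CPM in the control libraries, 16.2, 13.9 and 15.3 CPM at 24 h and 30.2, 31.5 and 28.9 CPM at 48 h. Control and 24 h overlapped and 48 h was about 30 CPM in every library, a 2.10-fold rise (adjusted p = 1.12e-08).

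Col16a1 was the most abundant FACIT chain and had 330.3, 339 and 338 CPM in the control libraries, 306, 327 and 312 CPM at 24 h and 488, 485 and 476 CPM at 48 h. The 24 h libraries lay just below control without a call (-0.09, edgeR adjusted p = 0.263), and the 48 h libraries were well above (0.52, SE 0.04, adjusted p = 1.56e-08). Col20a1 had 2.51, 3.19 and 1.96 CPM in the control libraries, 3.67, 2.60 and 4.23 CPM at 24 h and 5.20, 4.79 and 4.48 CPM at 48 h. It rose at 48 h (0.92, SE 0.22, adjusted p = 0.00189). Col20a1 overlaps the long noncoding RNA 9230112E08Rik on the same strand, which held 944 counts over all libraries against 515 for Col20a1 and also rose at 48 h (0.84, adjusted p = 0.000156), so the assignment of reads between them is uncertain.

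Both expressed basement membrane chains fell at 48 h, where 24.4% of all tested genes were called lower. Col4a1 and Col4a2 encode the α1 and α2 chains of the ubiquitous type IV trimer. They lie head to head on chromosome 8 and overlap by 22 bases in the deposited annotation (GRCm39, Col4a1 at 11248423 to 11362826 on the minus strand, Col4a2 at 11362805 to 11499287 on the plus strand). Their RefSeq promoter windows share 78 bases, read in opposite directions, and are shown for that reason.
Col4a1, chr8:11312777-11313076, - strand: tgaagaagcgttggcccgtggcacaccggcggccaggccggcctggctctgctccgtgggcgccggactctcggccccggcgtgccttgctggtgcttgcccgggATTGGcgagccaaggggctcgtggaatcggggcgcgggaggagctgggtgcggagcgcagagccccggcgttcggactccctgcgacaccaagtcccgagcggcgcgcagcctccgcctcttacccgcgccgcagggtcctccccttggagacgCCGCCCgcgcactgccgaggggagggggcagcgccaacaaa
Col4a2, chr8:11312555-11312854, + strand: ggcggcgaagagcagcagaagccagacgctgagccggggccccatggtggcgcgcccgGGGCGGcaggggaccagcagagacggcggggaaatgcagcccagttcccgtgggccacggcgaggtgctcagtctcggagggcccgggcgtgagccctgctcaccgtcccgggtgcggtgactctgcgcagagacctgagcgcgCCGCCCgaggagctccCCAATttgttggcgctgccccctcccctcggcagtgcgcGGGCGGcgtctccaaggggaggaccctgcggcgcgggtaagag
The Col4a1 window held 1 match to CCAAT, 145 bases before its start, and 1 to GGGCGG, 10 bases after it. The Col4a2 window held 1 match to CCAAT, 32 bases before its start, and 3 to GGGCGG, the last of which, 8 bases after the start, lies in the shared stretch and is the same site as the GGGCGG match of Col4a1.

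Col4a1 had 316, 327 and 344 CPM in the control libraries, 295, 293 and 291 CPM at 24 h and 237, 227 and 222 CPM at 48 h. The 3 groups did not overlap, and the level was lowest at 48 h (-0.53, SE 0.05, edgeR adjusted p = 4.95e-08). Its small fall at 24 h (-0.17, adjusted p = 0.0414) lost its call in 10 of 15 alternatives, among them leaving out control replicate 3, any 24 h or any 48 h library, with adjusted p between 0.0229 and 0.163 and log2 fold changes between -0.19 and -0.13. Col4a2 had 143, 161 and 153 CPM in the control libraries, 141, 144 and 145 CPM at 24 h and 131, 118 and 127 CPM at 48 h. Its control and 24 h libraries overlapped, and it fell at 48 h (-0.28, SE 0.06, adjusted p = 0.000499). How reads that cross the 22 shared bases were counted is uncertain, since the use of strand is not stated.

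The beaded filament chains moved in different directions. Col6a1, Col6a2 and Col6a3 encode the chains of the common type VI heterotrimer of the pericellular matrix. Col6a1 had 626, 690.0 and 672 CPM in the control libraries, 588, 588 and 625 CPM at 24 h and 835, 779 and 790.2 CPM at 48 h. The 24 h libraries were the lowest and the 48 h libraries the highest, with a higher level at 48 h (0.27, SE 0.05, edgeR adjusted p = 8.77e-05) and no call at 24 h (-0.14, adjusted p = 0.0816). The 24 h value passed the threshold without control replicate 1 (-0.18) and with library size only (-0.16), with adjusted p between 0.0426 and 0.301 over 15 alternatives. Col6a3 had 340.2, 347 and 407 CPM in the control libraries, 292, 265 and 282 CPM at 24 h and 230.0, 227 and 247 CPM at 48 h. Every 48 h library was below every 24 h library, and these were below control (-0.38 and -0.64, SE 0.06 and 0.06, adjusted p = 0.000597 and 1.76e-07).

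Col6a2 had 386 ± 4.34 CPM in control, 339 ± 8.94 at 24 h and 404 ± 10.8 at 48 h (SD, n = 3). It fell slightly at 24 h (-0.19, edgeR adjusted p = 0.0123) and had a log2 fold change of 0.06 without a call at 48 h (adjusted p = 0.235). The 24 h call was lost without 24 h replicate 1 (-0.17) and without 24 h replicate 2 (-0.18), with adjusted p between 0.00428 and 0.1004 over 15 alternatives.

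Among the smaller classes, Col8a1 was the most abundant. It encodes a chain of the hexagonal network of type VIII collagen and had 60.6, 54.9 and 61.6 CPM in the control libraries, 58.7, 64.1 and 61.1 CPM at 24 h and 88.0, 93.9 and 90.6 CPM at 48 h. Control and 24 h overlapped, and it rose at 48 h (0.62, SE 0.06, edgeR adjusted p = 1.43e-07), while its partner Col8a2 did not exceed 2 counts in any library. Col10a1, the marker of hypertrophic chondrocytes, had 2.01, 1.64 and 0.451 CPM in control, 1.13, 1.69 and 1.06 at 24 h and 1.37, 1.44 and 1.23 at 48 h. Its groups overlapped and its control libraries held between 6 and 32 counts. Its log2 fold changes of -0.09 and -0.05 carried SEs of 0.39 and 0.38, and no change was detected.

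Col18a1, the multiplexin whose C-terminal fragment is endostatin, had 10.9, 10.3 and 11.4 CPM in the control libraries, 9.28, 8.72 and 10.9 CPM at 24 h and 19.7, 16.4 and 20.8 CPM at 48 h. It rose at 48 h (0.80, SE 0.11, edgeR adjusted p = 1.24e-05). It overlaps Slc19a1 on the opposite strand, which held 8073 counts over all libraries against 1886 for Col18a1 and fell at 48 h (-0.67, adjusted p = 3.4e-08). Col7a1, the anchoring fibril chain of the skin's basement membrane, had 19.3, 15.4 and 18.6 CPM in the control libraries, 21.0, 19.5 and 20.7 CPM at 24 h and 14.4, 13.8 and 13.8 CPM at 48 h. The 48 h libraries were lowest (-0.35, SE 0.10, adjusted p = 0.00648), but the call was lost without control replicate 1 (-0.27), with adjusted p between 0.00115 and 0.0592 over 15 alternatives.

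The transmembrane chains were near the lower end of the tested range and moved in opposite directions at 48 h. Col17a1, a hemidesmosome protein of epithelia, had 2.07, 1.55 and 1.20 CPM in the control libraries, 1.80, 1.69 and 1.27 CPM at 24 h and 0.514, 0.420 and 0.854 CPM at 48 h. Control and 24 h overlapped and all 48 h libraries were below 1 CPM, the largest fall of any tested chain (-1.42, SE 0.36, edgeR adjusted p = 0.0031). Col23a1 had 1.57, 0.736 and 1.13 CPM in the control libraries, 1.20, 2.08 and 1.62 CPM at 24 h and 2.40, 2.28 and 1.65 CPM at 48 h. It was called higher at 48 h (0.84, SE 0.31, adjusted p = 0.0357), and the call was lost without control replicates 2 or 3 (0.64 and 0.83) and without 48 h replicates 1 or 2 (0.74 and 0.78), with adjusted p between 0.0186 and 0.133 over 15 alternatives. The promoter window of Col17a1 is shown as that of the chain with the largest fall.
Col17a1, chr19:47691993-47692292, - strand: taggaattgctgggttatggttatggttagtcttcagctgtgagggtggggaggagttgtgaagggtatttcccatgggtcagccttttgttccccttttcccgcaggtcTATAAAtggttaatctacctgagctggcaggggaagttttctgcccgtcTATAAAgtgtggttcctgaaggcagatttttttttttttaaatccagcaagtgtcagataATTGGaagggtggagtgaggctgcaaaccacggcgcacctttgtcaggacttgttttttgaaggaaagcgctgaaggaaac
It held 2 matches to TATAAA, 140 and 91 bases before the start, and 1 to CCAAT.

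The second comparison asked how 48 h differed from 24 h of stimulated co-culture, where both groups shared the stimulus. With no unstimulated culture matched to each time, longer culture and a later effect of stimulation cannot be told apart here. Of the 25 chains, 12 were higher and 5 lower at 48 h, where 49.1% of all genes were called (23.7% higher and 25.4% lower), and the libraries did not overlap for 21 of 25 chains against 59.4% of genes. A call with a difference of at least 1 was made for 3 chains, with a background of 5.84%, and of at least 0.5 for 11 chains, with a background of 20.8%. The 3 chains were Col24a1 (1.65, SE 0.26, edgeR adjusted p = 3.26e-05), Col14a1 (1.54, SE 0.07, adjusted p = 2.7e-12) and Col17a1 (-1.39, SE 0.35, adjusted p = 0.00327). Col22a1 (0.99), Col18a1 (0.98) and Col3a1 (0.84) followed, each with an SE of 0.11 or less. Type IV chains were lower at 48 h than at 24 h (Col4a1 -0.36, Col4a2 -0.19), as were Col6a3 (-0.25) and Col7a1 (-0.54). The Col4a2 call was lost without 48 h replicate 2 (-0.15), with adjusted p between 0.00159 and 0.0597 over 15 alternatives. Col12a1 and Col5a2, which were higher than control at both times, were not called between the times (Col12a1 0.07, SE 0.10; Col5a2 -0.05, SE 0.04). Col20a1 (0.47, adjusted p = 0.069) passed the threshold without 24 h replicate 3 (0.63), with library size only (0.50) and in a fit of the 2 groups alone (0.47), with adjusted p between 0.0340 and 0.271 over 15 alternatives.

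Within the collagen counts, Col1a1 took a smaller and Col3a1 a larger share at 48 h than in control. Col1a1 took 20.6% ± 0.479 of the collagen counts in control cells (SD, n = 3), 18.0% ± 0.0877 at 24 h and 15.4% ± 0.223 at 48 h, and the groups did not overlap. Col3a1 took 13.0% ± 0.455, 15.9% ± 0.0645 and 23.3% ± 0.370, again without overlap. These are shares of counts, which do not account for length. Per kilobase of deposited length the 48 h means of both chains were within their spread, as given above. With canonical lengths Col3a1 was higher at 48 h (316 against 195 CPM per kb). Col5a2 took its largest share at 24 h (17.0% ± 0.102, against 13.2% ± 0.407 in control and 13.5% ± 0.0863 at 48 h). By class, fibrillar chains held 60.5% ± 0.510 of the collagen counts in control, 63.8% ± 0.204 at 24 h and 64.9% ± 0.404 at 48 h. The basement membrane share was 7.78% ± 0.173, 7.09% ± 0.150 and 4.70% ± 0.140 in the same order, and the FACIT share 7.43% ± 0.0620, 7.81% ± 0.134 and 9.58% ± 0.0704. Beaded filament chains held 22.8% ± 0.476, 19.8% ± 0.123 and 19.1% ± 0.384, and network chains 0.977% ± 0.0579, 1.02% ± 0.0614 and 1.22% ± 0.0463. These shares are linked, since a rise of Col3a1 lowers the share of every other chain, and without Col3a1 (the chain with the most counts over all libraries) in the sum the fibrillar share was 54.6% in control, 56.9% at 24 h and 54.2% at 48 h.

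**Figure D4:**
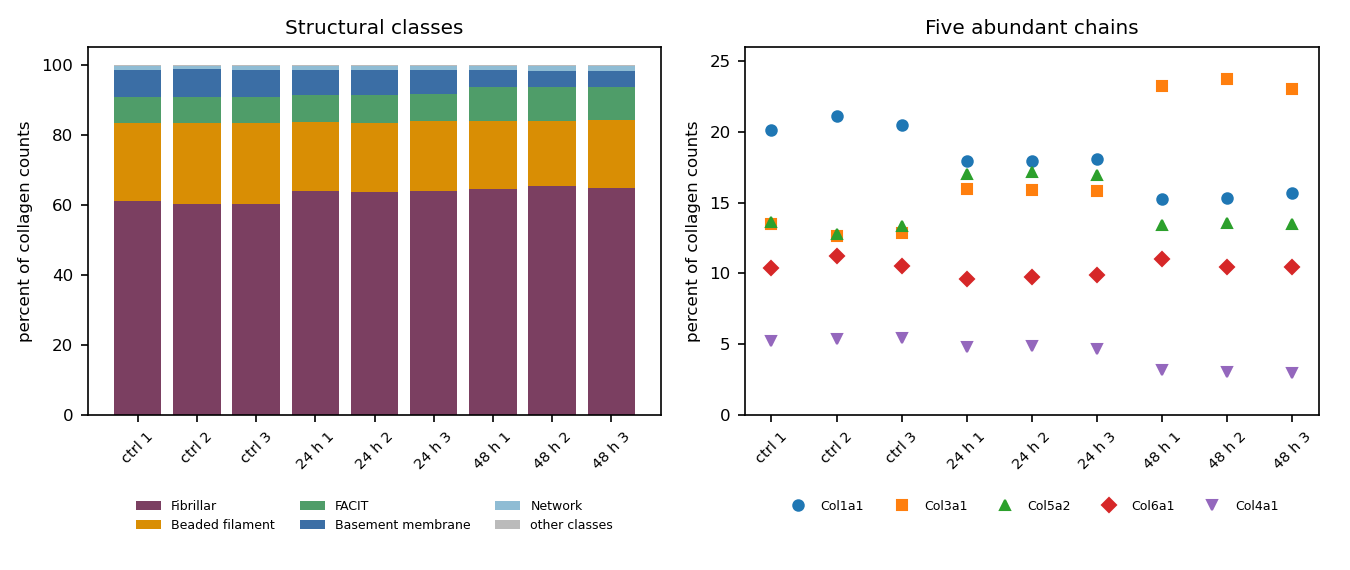
Left, percent of collagen counts in each structural class per library, as stacked bars that sum to 100%. Right, percent of collagen counts in each of 5 abundant chains per library. Col3a1 lies at 23.0% to 23.7% in the 48 h libraries and at 12.6% to 13.5% in control, and counts are not divided by length.

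Chains that assemble into the same trimer were compared as ratios of counts per kilobase within a library, which do not depend on library scaling. An exact permutation test of 3 against 3 cannot give a p below 0.1, so none was used. The ratio of Col1a1 to Col1a2 was 9.14 ± 0.117 in control, 9.99 ± 0.305 at 24 h and 7.64 ± 0.0864 at 48 h (SD, n = 3), with no overlap between the groups. Its size depends on the length used, since the deposited length of Col1a2 (12426 bases) is over that of its canonical transcript (5359 bases). With canonical lengths the ratio was 4.36, 4.77 and 3.65 in the same order. Col4a1 to Col4a2 was 1.92 ± 0.0962, 1.81 ± 0.0429 and 1.62 ± 0.0745, where control and 24 h overlapped and 48 h was below both. Col5a1 to Col5a2 was 0.587 ± 0.0149 in control and lower in both stimulated groups (0.447 ± 0.0132 at 24 h and 0.463 ± 0.00766 at 48 h). Col6a3 to Col6a1 was 0.202 ± 0.0190 in control, 0.171 ± 0.00945 at 24 h and 0.107 ± 0.00675 at 48 h, the largest relative change of the 5 pairs, and Col6a1 to Col6a2 was 3.26 ± 0.136, 3.37 ± 0.0488 and 3.77 ± 0.136.

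**Figure D5:**
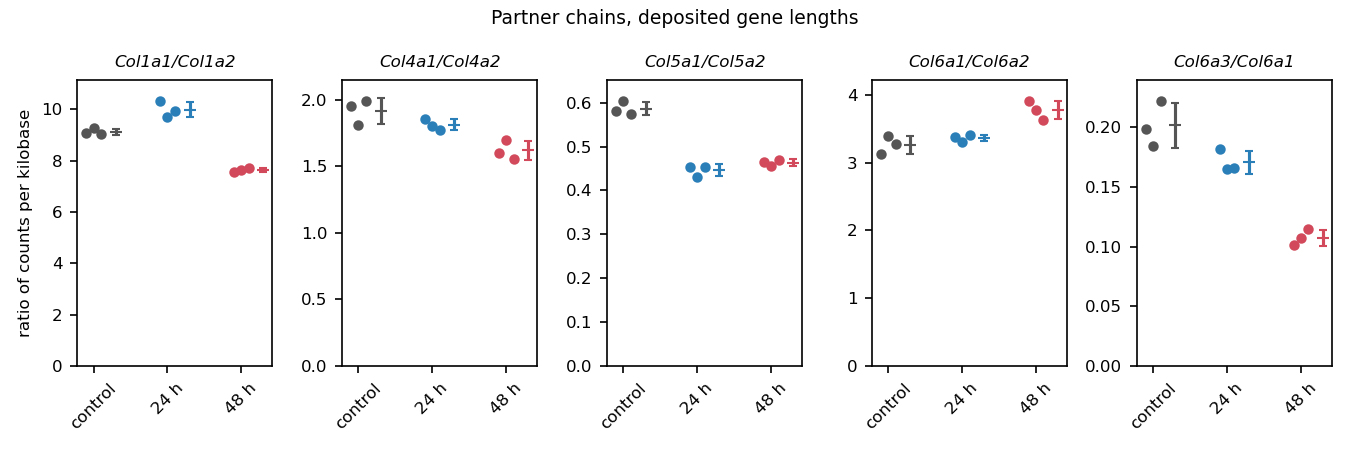
Ratios of counts per kilobase (vertical axes, from 0) of 5 pairs of partner chains in each of 9 libraries, using the gene lengths of the deposited table, with the mean and SD beside the points of each group. The Col6a3 to Col6a1 ratio falls from 0.184 or more in control libraries to 0.114 or less in 48 h libraries, and Col5a1 to Col5a2 is lower in both stimulated groups than in control.

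Several collagen genes lie next to each other. Col3a1 and Col5a2 lie tail to tail on chromosome 1 with 24614 bases between them, and both rose at both times. Col6a2 and Col6a1 lie in the same orientation on chromosome 10, 85161 bases apart, and differed in their calls (Col6a1 higher at 48 h, Col6a2 lower at 24 h). The other head-to-head pairs, Col4a4 with Col4a3 (71 bases apart) and Col4a6 with Col4a5 (1308 bases apart), were too low to test, as were the adjacent Col6a6, Col6a5 and Col6a4 on chromosome 9. Col10a1 overlaps Nt5dc1 on the opposite strand, which held 4122 counts against 187.

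Genes that fold, trim, crosslink, bind or degrade collagen were counted from 5 lists assembled from textbook knowledge. Of 20 genes for folding and modification in the endoplasmic reticulum, 19 were tested, and 4 rose and 6 fell at 48 h, while 5 rose and none fell at 24 h (median log2 fold changes -0.13 and 0.077). The 48 h share called, 10 of 19, was near the 46.4% of all tested genes, while 6.15% of these were called at 24 h. Plod2, the lysyl hydroxylase of telopeptides, had 214 ± 8.80 CPM in control, 259 ± 1.01 at 24 h and 412 ± 3.89 at 48 h (SD, n = 3) and rose at both times (0.28 and 0.95, edgeR adjusted p = 0.000556 and 1.23e-11). Creb3l1, a transcription factor of collagen secretion in osteoblasts, rose at 24 h (0.26) and fell at 48 h (-0.90, adjusted p = 2.41e-08). P3h3 rose at 48 h (0.47, adjusted p = 1.39e-06) without a call at 24 h.

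Of 15 genes for procollagen trimming and crosslinking, 13 were tested, and 9 rose and 1 fell at 48 h, with 2 in each direction at 24 h (medians 0.26 and -0.19), against 22.0% (higher) and 24.4% (lower) of all 13812 genes at 48 h and 6.15% called at 24 h. Lox, the main lysyl oxidase, rose at both times (0.65 and 0.89, edgeR adjusted p = 7.27e-08 and 6.43e-11), and Tll1, a procollagen C-proteinase, rose at 48 h (1.10, adjusted p = 0.000202). Pcolce2, an enhancer of that cleavage, fell from 49.2 ± 3.54 CPM in control to 10.7 ± 0.585 at 48 h (-2.20, adjusted p = 1.07e-12). Of 10 receptors and uptake genes, 7 were tested, with 2 higher and 2 lower at 48 h and 1 lower at 24 h (medians 0.037 and -0.011), against the same shares. The integrin chain Itga1 rose at 48 h (0.98, adjusted p = 1.13e-06).

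Of 6 collagen-degrading proteinases, 5 were tested, with 2 higher and 2 lower at 48 h, and 1 higher and 3 lower at 24 h (medians -0.059 and -0.16), where 46.4% of all tested genes were called at 48 h and 6.15% at 24 h. Mmp13, the main interstitial collagenase of rodents, had 4.33, 2.94 and 3.84 CPM in the control libraries, 14.8, 12.8 and 13.1 CPM at 24 h and 28.5, 28.3 and 28.0 CPM at 48 h, with no overlap between the groups (1.85 and 2.91, edgeR adjusted p = 3.12e-08 and 1.84e-12). Mmp2 rose at 48 h (0.50) and Mmp9 fell (-1.54) from a level below 1 CPM. Against the same shares, of 14 basement membrane partners of type IV collagen 11 were tested, and 6 rose and 1 fell at 48 h, with 5 higher and 1 lower at 24 h (medians 0.32 and 0.15), whereas both type IV chains fell at 48 h. Lama2 (1.5, adjusted p = 0.02) and Lama4 (0.69, adjusted p = 1.63e-08), laminin α-chains, rose at 48 h, and Lamb3, a β-chain of epithelial laminin, fell at both times (-1.29 and -0.91).

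Of 10 chondrocyte markers, 4 were tested, 3 were at 0 (Acan, Matn1 and Cnmd), and the summed level of the list was 1679 to 1714 CPM in control, 1564 to 1647 at 24 h and 2126 to 2214 at 48 h. Nearly all of it was Prg4 (1576 ± 25.1, 1493 ± 39.6 and 2047 ± 41.6 CPM), the lubricin gene, which was higher at 48 h (0.38, edgeR adjusted p = 8.64e-08). Sox9, a transcription factor of chondrogenesis, had 112 ± 6.89, 104 ± 3.45 and 124 ± 3.58 CPM and was also called higher at 48 h (0.14, adjusted p = 0.0449), as was Comp (1.45, adjusted p = 0.0267) from a level below 1 CPM, and Matn3 was called lower (-1.25, adjusted p = 0.00155). Thus 3 of the 4 were higher and 1 lower at 48 h, where 46.4% of all tested genes were called, and none of the 4 was called at 24 h (6.15%). The part of these markers in the collagen results was not tested. Of 5 macrophage markers, 2 were tested (1 higher at 48 h, 1 higher and 1 lower at 24 h) and Adgre1 was at 0, with a summed level of 16.6 to 17.7 CPM in control, 21.7 to 23.9 at 24 h and 18.3 to 20.6 at 48 h. None of 4 endothelial markers was tested, Cdh5 was at 0, and their sum did not exceed 0.521 CPM. The osteocyte and osteoblast markers summed to 7220.1 to 7356 CPM in control, 7559.8 to 7809.9 at 24 h and 7037 to 7103 at 48 h, with 3 of the 10 tested higher and 4 lower at 48 h and 1 higher at 24 h, where 46.4% and 6.15% of all tested genes were called.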

How the data were processed

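RNA of MLO-Y4 cells was measured in 9 libraries of 3 groups, which were taken from the sample labels. Per the labels and the study's methods, the authors trimmed paired reads of directional libraries, aligned them to mm39 (GRCm39) with HISAT2 and counted them per gene with featureCounts. The methods also name RSEM as the tool of quantification. The deposited table holds raw counts per gene, gene coordinates and a gene length. Different featureCounts versions are named in the labels and the methods, which do not state the use of strand or the handling of reads with several matches, so overlapping genes are uncertain.

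Counts were fitted with edgeR 4.0.16 (limma 3.58.1, R 4.3.3) in 1 quasi-likelihood fit of all 9 libraries, with group as the only term, 6 residual degrees of freedom and TMM scaling. The function filterByExpr (minimum count 10) left 13812 genes, which held 99.9% of the counts, and p-values were adjusted over these by the Benjamini-Hochberg method. Calls were made at an adjusted p under 0.05, and SEs were derived from the fold change and the F statistic. CPM are TMM-scaled. The procedure was tested on simulated data. Alternatives were DESeq2 1.42.0, other scaling, no filter, 2 groups alone, a replicate block, stricter thresholds and each library left out. Canonical lengths came from GENCODE M39 (GRCm39) and promoters from RefSeq (GRCm38.p6).

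The text names every tested chain. It gives values per library for chains called with an absolute log2 fold change of at least 0.5 against control and for the 5 highest per kilobase in control, and some others. From each of the 5 pathway lists it names at most 3 called genes. The members and the 9 lists (5 of pathways, 4 of cell type markers) were chosen with earlier results of these data known. Total counts ranged from 12250628 to 18515456, and a floor of 3 counts was used. The labels do not say that replicate numbers mark pairs, so the numbers were not used as pairs. Deviations of same-numbered libraries correlated between -0.049 and 0.077. Libraries with different numbers reached 0.095, so this check cannot decide on pairing.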

Additional observations from a re-analysis of the deposited data

Results flagged for a closer look

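The test of 48 h against 24 h, which is also the test of whether the effects against control differ between the times, passed the threshold for 17 of the 25 chains (edgeR adjusted p under 0.05), where 49.1% of all genes passed. Both times shared the stimulus and the control libraries, and no explanation was tested. Since no unstimulated culture matched each time, these differences may hold the effect of longer culture as well as that of stimulation. The differences of the log2 effects (48 h minus 24 h) were positive for 12 chains, namely Col24a1 (1.65), Col14a1 (1.54), Col22a1 (0.99), Col18a1 (0.98), Col3a1 (0.84), Col11a1 (0.84), Col16a1 (0.62), Col5a3 (0.60), Col8a1 (0.57), Col1a2 (0.45), Col6a1 (0.42) and Col6a2 (0.25). They were negative for Col17a1 (-1.39), Col7a1 (-0.54), Col4a1 (-0.36), Col6a3 (-0.25) and Col4a2 (-0.19). In Col14a1 and Col1a2 the effects against control were called in opposite directions, but the 48 h call of Col1a2 was lost in several alternatives, as given above. No group had 4 or more libraries, so single libraries were not screened for outlying values.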

How the results depend on the processing

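Over 15 alternatives, the 75 fold changes of the 25 chains in 3 comparisons gave 1125 values. Of these, 1072 kept their direction and their side of the threshold, 25 lost a call, 6 gained one and 22 changed sign. The sign changes were in fold changes without a call. DESeq2's Wald test changed no call. With an adjusted p under 0.01, 464 genes were called at 24 h. Requiring an absolute log2 fold change of at least 0.5 left 3 chains lower at 48 h (2477 genes called), 1 higher and 1 lower at 24 h (250 genes) and 2 lower at 48 h against 24 h (2870 genes). Requiring at least 1 left 4 chains higher and 1 lower at 48 h (705 genes), 0 and 0 at 24 h (63 genes) and 2 higher and 1 lower at 48 h against 24 h (806 genes). These smaller counts follow from the thresholds. Leaving out 1 library each gave 518 to 1475 called genes at 24 h, the highest without control replicate 3 and the lowest without 24 h replicate 3.

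Col10a1 at 48 h was 0.014 with a replicate block, which otherwise changed no call and left all counts of chains as they were, and Col5a1 at 48 h against 24 h was -0.017 without the filter. With 1 library left out, Col10a1 ranged from -0.49 to 0.34 at 24 h, from -0.44 to 0.40 at 48 h and from -0.067 to 0.30 between the times, Col11a2 at 48 h from -0.31 to 0.23, Col12a1 between the times from -0.0046 to 0.13, Col17a1 at 24 h from -0.20 to 0.21, Col24a1 at 24 h from -0.13 to 0.42, and Col5a1 from -0.058 to 0.0014 at 24 h and from -0.022 to 0.037 between the times. Col10a1, Col11a2, Col17a1 and Col24a1 were low chains, and the reason for these ranges was not tested. Same-numbered libraries did not correlate beyond 0.077, and the numbers were not used as pairs. Libraries with different numbers reached 0.095, so this check cannot decide whether the numbers mark pairs.

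With TMM-scaled library sizes the collagen share at 48 h was 0.753%. Without Col3a1, the chain with the most counts over all libraries, the collagen share was 0.538, 0.511 and 0.585% in control, 24 h and 48 h, and the class shares in the same order were 54.6, 56.9 and 54.2% (fibrillar), 26.2, 23.5 and 24.9% (beaded filament), 8.54, 9.29 and 12.5% (FACIT), 8.94, 8.43 and 6.14% (basement membrane), 1.12, 1.21 and 1.60% (network), 0.584, 0.641 and 0.619% (other classes).
Without length, the chain ratios in that order were 4.83, 5.28, 4.04 (Col1a1 to Col1a2), 2.16, 2.05, 1.83 (Col4a1 to Col4a2), 0.524, 0.399, 0.413 (Col5a1 to Col5a2), 1.72, 1.77, 1.99 (Col6a1 to Col6a2), 0.551, 0.466, 0.293 (Col6a3 to Col6a1).
With canonical lengths they were 4.36, 4.77, 3.65 (Col1a1 to Col1a2), 2.21, 2.09, 1.86 (Col4a1 to Col4a2), 0.468, 0.356, 0.370 (Col5a1 to Col5a2), 2.50, 2.58, 2.89 (Col6a1 to Col6a2), 0.248, 0.210, 0.132 (Col6a3 to Col6a1).
A change of length multiplies a pair's ratio by 1 factor in every library and leaves the order of the groups as it was.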
